A study of Mus musculus with 12 samples.

Results

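Mouse neural stem cells carrying an shRNA against JMJD3 were compared with control cells after both had received transforming growth factor beta (TGFb). The comparison was chosen by the labels: the 3 arrays labelled sh JMJD3 + TGFb against the 3 arrays labelled sh control + TGFb, 6 of the 12 arrays of the series, with all 24139 genes that passed the filter on dim probes. JMJD3 is the protein of Kdm6b. It is an enzyme that takes methyl groups off histone H3 at lysine 27 (H3K27), a mark that the Polycomb repressive complex PRC2 writes and that goes with silent developmental genes. TGFb binds receptor kinases that phosphorylate Smad proteins, and these enter the nucleus and switch on target genes, among them the inhibitors that end the signal. In the embryonic cortex TGFb is known to drive neural progenitors out of the cell cycle and towards neurons.

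The cells came from the cerebral cortex of mouse embryos at E12.5 and were grown in culture. The control cells were stably transfected with an shRNA of random sequence, and the knockdown cells stably carried 1 shRNA against JMJD3, labelled sh2 JMJD3, so that all 4 groups of the series express an shRNA. The 6 arrays compared had TGFb at 5 ng/ml for 2.5 h, and the other 6 arrays hold the same lines with vehicle. Each line was made with 1 shRNA, so loss of JMJD3, other effects of that shRNA and other differences between the lines cannot be told apart. An effect of knockdown below means the difference between the lines. Whether the 3 replicates of a group are separate cultures is not stated in the labels, and the p-values then reflect the scatter among these arrays, part or all of which may be technical.

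RNA was hybridised to 1-colour Agilent arrays, and levels are log2 of the processed signal relative to each array's 75th percentile. That percentile lay between 3175 and 4462 on the 6 arrays, 74.9% to 77.3% of probes passed the scanner software’s test of being well above background, and 0 were saturated. The median standard error of a log2 difference was 0.102, and precision is limited by having 3 arrays a group. The control arrays lay on slides 2, 3 and 4 and the knockdown arrays on slide 3 and, for replicates 2 and 3, slide 4. Arrays of different groups on a shared slide deviated together in 12 of 12 pairs (r between 0.18 and 0.58 across genes), so the lines were also compared within slides 3 and 4 and with the slide as a block. Of the 224 called genes that the naming rule took, 0 changed sign within either slide. The within-slide values reuse arrays that made the calls, and non-overlap fixes their sign, so this count is no independent check. Within slide 3 the difference of 38 of the 224 genes moved by more than 1 SD of the replicates, and that of 14 was over 1.5 times smaller. Within slide 4 these numbers were 17 and 6. Markers of neural stem cells were present in the control cells with TGFb: Nes, Vim, Fabp7, Slc1a3 and Sox2 were well above background on all 6 arrays. The dorsal telencephalic factor Emx1 was well above background on 1 of the 3 control arrays.

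Kdm6b itself, the targeted gene, was measured first. Its level was -0.67, -0.69 and -0.59 on the 3 control arrays and -2.01, -2.12 and -2.01 on the 3 knockdown arrays. All 3 knockdown arrays lay below all control arrays, by more than 1 log2 unit. The difference was -1.40 ± 0.05 (SE, n = 3 per group), a 2.63-fold fall (limma, adjusted p = 2.8e-08), with -1.32 within slide 3 and -1.47 within slide 4. Without TGFb the difference was -1.16, and the difference between both values, -0.23 ± 0.08, did not pass the test (adjusted p = 0.72).

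With TGFb, 6996 of the 24139 genes, 29%, differed between the lines at an adjusted p below 0.05 (8937 with the slide as a fixed block). Of these 2902 (12% of all genes) were higher in the knockdown cells and 4094 (17%) were lower. Most of these differences were small: the median size among called genes was 0.38 on the log2 scale, and 75.9% of them were below 1.5-fold. At 2-fold or more, 454 genes (1.88%) differed, of which 285 (1.18%) rose and 169 (0.7%) fell. A list of genes is therefore read below against 29% called, 12% higher and 17% lower. Most pathway lists had a called share above 29%, within a range of 15.4% to 60%, so a share above it is not particular to a list. The median over all genes was -0.01, and under the other scalings it moved by at most 0.04.

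Kdm6b was not alone in falling among genes for the enzymes of its mark and their partner subunits. Of 14 measured genes for H3K27 demethylases and PRC2, 0 rose and 7 fell, and the median difference was -0.19 (-0.20 within slide 3 and -0.23 within slide 4). The 7 are the targeted gene Kdm6b itself and Aebp2, Ezh1, Jarid2, Phf19, Mtf2 and Eed. The count was 0 higher and 4 to 8 lower under the other scalings, background corrections and the slide block, and without TGFb it was 0 higher and 5 lower.

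Aebp2, an accessory subunit that stabilises PRC2, had levels of 0.45, 0.61 and 0.54 on the control arrays and -0.52, -0.42 and -0.50 on the knockdown arrays. The groups did not overlap, and the difference was -1.01 ± 0.06 (adjusted p = 8.4e-07). Ezh1, the catalytic subunit that prevails in non-dividing cells, had levels of -0.71, -0.65 and -0.73 and -1.45, -1.67 and -1.61 in the same order. It fell by 0.88 (adjusted p = 8.6e-06), again with no overlap. Jarid2, which helps to bring PRC2 to its sites, went from -0.05, 0.14 and -0.05 to -0.40, -0.27 and -0.33, a difference of -0.35 (adjusted p = 0.0021). These 3 kept their call in every alternative and with any array left out.

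Smaller falls were seen for Phf19 (-0.29) and Mtf2 (-0.19), Polycomb-like proteins that read histone H3, and for Eed (-0.18), the core subunit that binds the methylated mark. All 3 lost the call when arrays were scaled by their median, and Phf19 also lost it without control replicate 1, knockdown replicate 2 or knockdown replicate 3 of the TGFb arrays (adjusted p up to 0.088). The catalytic subunit of dividing cells, Ezh2, differed by -0.08 and the core subunit Suz12 by 0.17, and neither passed the test. The other demethylases of the mark did not pass either: Kdm6a differed by -0.31 ± 0.11 and its Y-linked relative Uty by 0.73 ± 0.48. The histone-binding subunits Rbbp4 and Rbbp7 differed by -0.15 and -0.13, and Phf1 by -0.06.

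**Figure D1:**
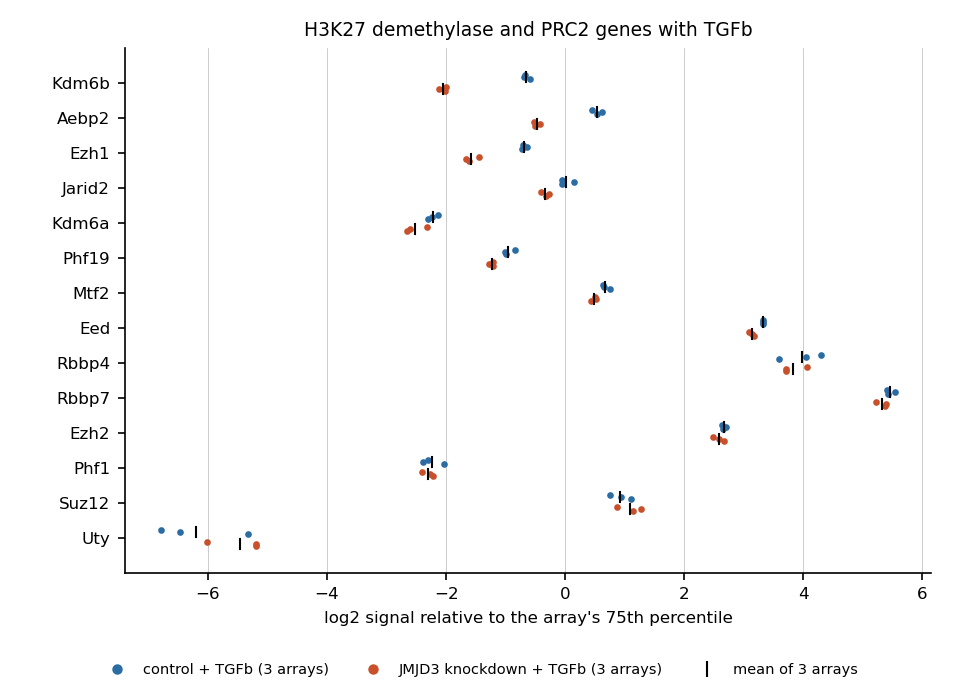
Levels of the 14 genes for H3K27 demethylases and PRC2 on the 6 arrays with TGFb, as log2 of the processed signal relative to the 75th percentile of the array, with 1 point for each array and a tick at the mean of each line. The control and knockdown points are well apart for Kdm6b, Aebp2 and Ezh1 and close together for Ezh2, Phf1 and Rbbp7.

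Among 27 other histone methyltransferases and demethylases 4 rose and 3 fell, a share near that of all genes. Setd7, a lysine methyltransferase, showed the largest of these differences and fell by 0.67 (adjusted p = 4e-06). Suv39h1, which methylates H3 lysine 9, fell by 0.36. Phf2, a demethylase of the lysine 9 mark, rose by 0.40. For Kmt2d, Kdm4a and Nsd1 the probes of a gene did not move together: with the mean over a gene's probes in place of the brightest probe, the call was lost for all 3 and the sign turned for Kmt2d and Kdm4a.

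Some genes differed more between the lines than Kdm6b itself. The 15 largest rises among genes with established symbols that were well above background on all 6 arrays ran from 1.85 to 3.11, and the 15 largest falls from 1.52 to 2.44 in size. In all 30 the arrays of the lines did not overlap, which the rule for naming them required and which held for 38.7% of all genes. With no overlap the sign within slide 3 and within slide 4 could not differ, so it is no separate check. All 15 rises and 14 of the 15 falls were also called without TGFb.

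St6galnac5, a sialyltransferase that builds gangliosides, rose most among genes with established symbols. Its level was -4.82, -5.03 and -4.81 on the control arrays and -1.89, -1.79 and -1.64 on the knockdown arrays, a difference of 3.11 ± 0.10 (adjusted p = 9.7e-09). The knockdown arrays all lay more than 2 units above the control arrays. Ankrd34c, an ankyrin repeat protein, rose by 2.27 ± 0.10 to 0.10, 0.18 and 0.11.

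Myt1l, a zinc-finger factor that represses non-neuronal genes, had levels of -5.79, -5.76 and -6.13 in control and -3.74, -3.74 and -3.87 in knockdown cells, a rise of 2.11 ± 0.14. Scrt1, a neuronal zinc-finger repressor, went from -4.90, -4.81 and -5.18 to -2.84, -3.13 and -3.11, a rise of 1.94 ± 0.11. Celsr3, an atypical cadherin needed for axon tracts, went from -3.73, -3.97 and -3.81 to -1.76, -1.91 and -2.05, a rise of 1.93 ± 0.11. Each of these genes had 3 knockdown arrays close together and well above the control arrays. Npy1r, a receptor for neuropeptide Y, rose by 1.99 ± 0.07, from -2.95, -2.97 and -3.02 to -1.10, -0.94 and -0.92.

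Gucy1a1, a subunit of the nitric oxide receptor guanylate cyclase, rose by 1.96, and Dtx1, a ubiquitin ligase that binds Notch, rose by 1.90. Ano4, of the anoctamin family of membrane proteins, rose by 2.08, Clic5, of the chloride intracellular channel family, by 1.94, and Cyp4f15, a cytochrome P450, by 1.89. Ccrl1 is the older symbol of Ackr4, an atypical chemokine receptor that takes up CCL19 and CCL21, and rose by 1.85; the probe filed under Ackr4 rose by 1.75. Ccdc106 rose by 1.93 and Myl1, a myosin light chain of fast muscle, by 1.94. Asph, an aspartate hydroxylase, rose by 2.00, though another probe of the same gene was called in the opposite direction. With normexp background correction the rises of Myt1l, Ano4 and Myl1 were 1.28, 0.91 and 1.00, more than 1.5 times smaller.

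The falls held a receptor and a ligand of one growth factor family. Pdgfra, the platelet-derived growth factor receptor that marks oligodendrocyte precursors, had levels of -2.90, -2.93 and -2.90 on the control arrays and -4.76, -4.68 and -4.67 on the knockdown arrays, a difference of -1.79 ± 0.07 (adjusted p = 2.3e-08). Pdgfb, a ligand of that receptor family, went from -0.35, -0.13 and -0.06 to -1.87, -1.80 and -1.91, a difference of -1.68 ± 0.10 (adjusted p = 4.3e-07). For both genes the 3 arrays of each line lay close together. In these bulk samples fewer cells of a type and less RNA per cell cannot be told apart. Pdgfb was also a gene that TGFb raised, by 1.11 in control and 1.20 in knockdown cells, values that share arrays with the comparison between lines.

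Slc35f3, of a solute carrier family, fell most among genes with established symbols that were well above background on all 6 arrays. Its level was -1.02, -0.85 and -1.03 on the control arrays and -3.30, -3.40 and -3.54 on the knockdown arrays, a difference of -2.44 ± 0.10 (adjusted p = 5e-08). Cpz, a carboxypeptidase, fell by 2.23, Nppc, the precursor of C-type natriuretic peptide, by 2.13, and Fndc1, a fibronectin-domain protein, by 1.68. Lpar2, a receptor for lysophosphatidic acid, fell by 1.52. Syt13, a synaptotagmin, and Stx3, a syntaxin, both of vesicle traffic, fell by 1.97 and 1.53. Chml, which presents Rab proteins for lipid attachment, fell by 1.85, and Sh2b3, an adaptor that restrains cytokine signalling, by 1.68. The esterase Ces2e, Prxl2c and the peroxidase Lpo fell by 2.30, 1.71 and 1.54. With normexp the differences of Ces2e, Nppc and Lpar2 were -1.04, -0.72 and -0.48, and that of Cpz was -1.49.

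Il6, a cytokine that acts on neural precursors, was the fall not called without TGFb. Its levels with TGFb were -6.64, -6.45 and -6.29 on the control arrays and -8.25, -7.58 and -8.11 on the knockdown arrays, so the groups did not overlap and spread more than for the other falls. The difference was -1.52 ± 0.36 (adjusted p = 0.0078), and -0.52 with normexp. On the 6 vehicle arrays Il6 was not well above background, so no size is given for its difference without TGFb.

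**Figure D2:**
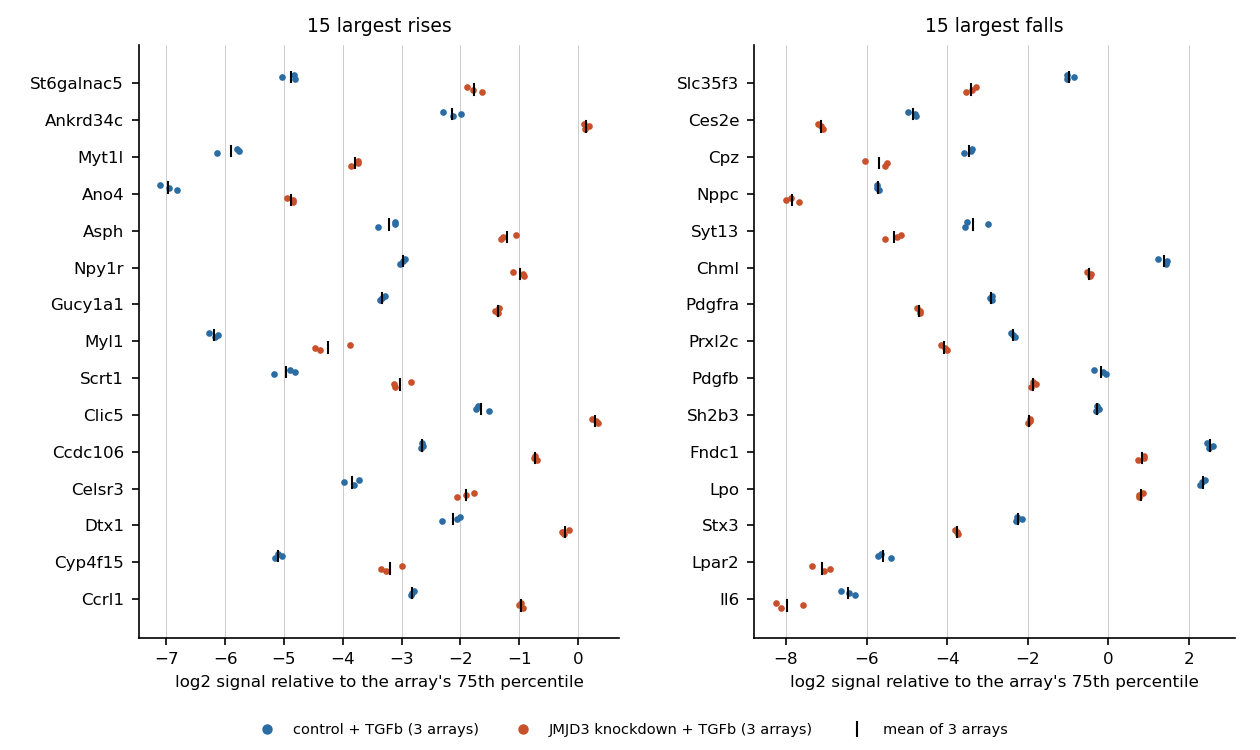
Levels of the 15 genes with the largest rises and the 15 with the largest falls on the 6 arrays with TGFb, as log2 of the processed signal relative to the 75th percentile of the array, with 1 point for each array. The control and knockdown points of each gene are apart, with the widest gap for St6galnac5 among the rises and Slc35f3 among the falls.

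Some genes were well above background in 1 line alone, so only a bound is given, which holds for this background processing alone. The bright line's mean was set, for each dim array, against the dimmest signal that still counted as well above background there, or the dim probe's own signal where that was higher. That floor is the lowest of its kind, and a higher one would give smaller bounds. Cd55, which shields cells from complement, was at least 7.20-fold lower in the knockdown cells. Prickle3, of the planar polarity pathway, was at least 4.56-fold lower, the muscle myosin Myh2 at least 3.63-fold, the phosphate transporter Slc17a1 at least 3.51-fold, Ctla2a at least 3.27-fold, Fam169b at least 2.88-fold, the LIM-homeodomain factor Lhx5 at least 2.69-fold and Spinkl at least 1.75-fold. Among genes dim in the control cells, Ikbke, an innate immune kinase, was at least 3.30-fold higher, the hormone Fgf21 at least 2.49-fold and Brinp1, a neuronal cell cycle inhibitor, at least 1.84-fold. Dmrtc1a and Gjd2, a gap junction protein of neurons, were at least 1.75-fold higher, Adra1a, an adrenergic receptor, at least 1.53-fold, the sulphate transporter Slc13a1 at least 1.52-fold and Spink8 at least 1.11-fold.

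These bounds depend on the background correction. With normexp the fitted differences were 0.09 to 0.40 in size for the rises and 0.18 to 0.78 for the falls, on the log2 scale. With normexp and in the authors' values none of the 16 fitted differences reached its bound (0 of 8 rises and 0 of 8 falls), and the call itself held with normexp for 1 of the 8 rises and 5 of the 8 falls. Leaving out 1 array ended the call for Fgf21 (control replicate 1 or knockdown replicate 3, adjusted p up to 0.062), for Adra1a (control replicate 2 or knockdown replicate 3, up to 0.072) and for Spink8 (any of the 6 arrays, up to 0.093).

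The TGFb pathway was described from ligand to target. Of 23 measured ligands and antagonists of the TGFb, BMP and activin families 5 rose and 1 fell, with a median of 0.01 that turned to between -0.03 and -0.01 under 3 other scalings or value sets. The split was 5 higher and 2 lower with the percentile over detected probes, 2 and 1 with median scaling, 4 and 2 with quantile normalization and 3 and 2 in the authors' values. Tgfb2, a ligand of the TGFb receptors, rose by 0.53 ± 0.08, from -0.54, -0.70 and -0.85 to -0.07, -0.21 and -0.22 (adjusted p = 0.00047). Inhbb, a subunit of activin B, fell by 0.36, and Gdf15, a stress-induced member of the family, rose by 0.40. Ltbp4, which holds latent TGFb in the matrix, rose by 0.25 and Fstl1, a secreted antagonist, by 0.24, and both lost the call with median scaling. Bmp2 rose by 0.31, and its call was lost without any of 5 arrays (adjusted p up to 0.12), 2 control and 2 knockdown arrays with TGFb and 1 knockdown array with vehicle. Tgfb1 itself differed by -0.24, which did not pass the test.

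Of 18 receptors and Smads 5 rose and 0 fell. All 5 are receptors or co-receptors. Bmpr1b, a type I BMP receptor, rose from -2.94, -2.78 and -2.87 to -1.91, -1.87 and -1.84, by 1.00 ± 0.07 (adjusted p = 1.9e-06). Tgfbr3, the co-receptor betaglycan that presents TGFb2, rose from -5.79, -5.60 and -5.44 to -5.00, -4.69 and -4.76, by 0.79 ± 0.12 (adjusted p = 0.00039), and by 0.47 with normexp. In both the lines did not overlap. Acvr1b, the type I activin receptor, rose by 0.44 and Acvr1, a type I BMP receptor, by 0.23, the last not with median scaling. Acvrl1, a type I receptor for BMP9, rose by 0.38, a call lost without any of 6 arrays (adjusted p up to 0.12), 4 of them with TGFb. The counts under the other scalings were 3 to 5 higher and 0 lower.

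Of 23 measured feedback regulators and early targets of TGFb 3 rose and 8 fell, with a median of -0.20 (-0.22 within slide 3 and -0.23 within slide 4). The share lower was above the 17% over all genes, as in several other lists, and the share higher near its 12%. Without TGFb 1 of the 23 was higher and 15 were lower, with a median of -0.42. The 8 that fell with TGFb are Ldlrad4, Snai2, Ccn2, Itgb5, Tgif1, Lif, Ccn1 and Smurf2, and Klf11 and Pmepa1 are among those that rose.

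Ldlrad4, a membrane protein that keeps Smads from the receptor, had levels of -0.89, -0.97 and -1.02 on the control arrays and -2.04, -2.66 and -2.45 on the knockdown arrays. Every knockdown array lay more than 1 unit below every control array, and the difference was -1.43 ± 0.13 (adjusted p = 1.4e-05). TGFb raised it by 3.00 in control and 2.79 in knockdown cells, values that share arrays with the fall, which was -1.22 without TGFb. Snai2, a repressor of cadherin genes, went from -6.15, -6.21 and -6.54 to -7.60, -7.66 and -7.70, a difference of -1.36 ± 0.17, which was -0.37 with normexp. Ccn2, the matrix protein known as connective tissue growth factor, went from 3.10, 3.12 and 3.26 to 2.58, 2.61 and 2.64, a difference of -0.55 ± 0.07 (adjusted p = 0.00015). Its lines did not overlap either.

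Smaller falls were those of Itgb5 (-0.54), an integrin chain that takes part in freeing latent TGFb, of Tgif1 (-0.42), a Smad corepressor, and of Smurf2 (-0.38), a ubiquitin ligase for Smads and receptors. Ccn1, a matrix protein related to Ccn2, fell by 0.41, and Lif, a cytokine of astrocyte formation, by 0.42. The call of Ccn1 was lost without any of 5 of the 6 TGFb arrays (adjusted p up to 0.11). That of Lif was lost without control replicate 3, knockdown replicate 2 or knockdown replicate 3 (up to 0.07) and with normexp.

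Other genes of the list rose. Klf11, a repressor induced by TGFb, rose by 0.51 ± 0.10 (adjusted p = 0.0024), and by 0.27 with normexp. Pmepa1, an inhibitor of receptor signalling related to Ldlrad4, rose by 0.18, a call lost without control replicate 2 or 3 or knockdown replicate 1 or 3 of the TGFb arrays (adjusted p up to 0.1) and with median scaling.

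The other 12 feedback genes and targets did not pass the test. Smad7, the inhibitory Smad, differed by -0.06 ± 0.18, the corepressor Skil by 0.11 ± 0.11 and Ski by 0.55 ± 0.39. Tgif2 differed by -0.06, Smurf1 by -0.09, Klf10 by -0.22 and Junb by -0.05. The matrix protein Tgfbi differed by -0.20, Bhlhe40 by 0.09, Il11 by 0.03, and Snai1, a relative of Snai2, by -0.61 ± 0.29.

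Of 11 measured BMP targets 2 rose and 3 fell, with a median of -0.08, and without TGFb 3 were higher and 1 was lower. Atoh8, a helix-loop-helix factor, went from -3.66, -3.73 and -4.06 to -4.47, -4.57 and -4.50, a difference of -0.70 ± 0.12 (adjusted p = 0.00086). Without TGFb the lines differed by 0.17, and the difference between both, -0.87 ± 0.16, did not pass the test (adjusted p = 0.12). Id1, an inhibitor of neurogenic helix-loop-helix factors, went from 3.35, 3.49 and 3.54 to 2.93, 3.14 and 3.10, a difference of -0.41 ± 0.08 (adjusted p = 0.002). Its relative Id3 fell by 0.28, a call lost without control replicate 1 or 2 or knockdown replicate 2 or 3 (adjusted p up to 0.099). Id4, of the same family, rose by 0.38 ± 0.08 (adjusted p = 0.0028) and the repressor Hey1 by 0.36 ± 0.05. Id2 and Smad6 differed by less than 0.1, Msx1 by -0.16, Msx2 by 0.11, Dlx5 by 0.06 and the antagonist Nog by -0.13, and none of these passed.

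**Figure D3:**
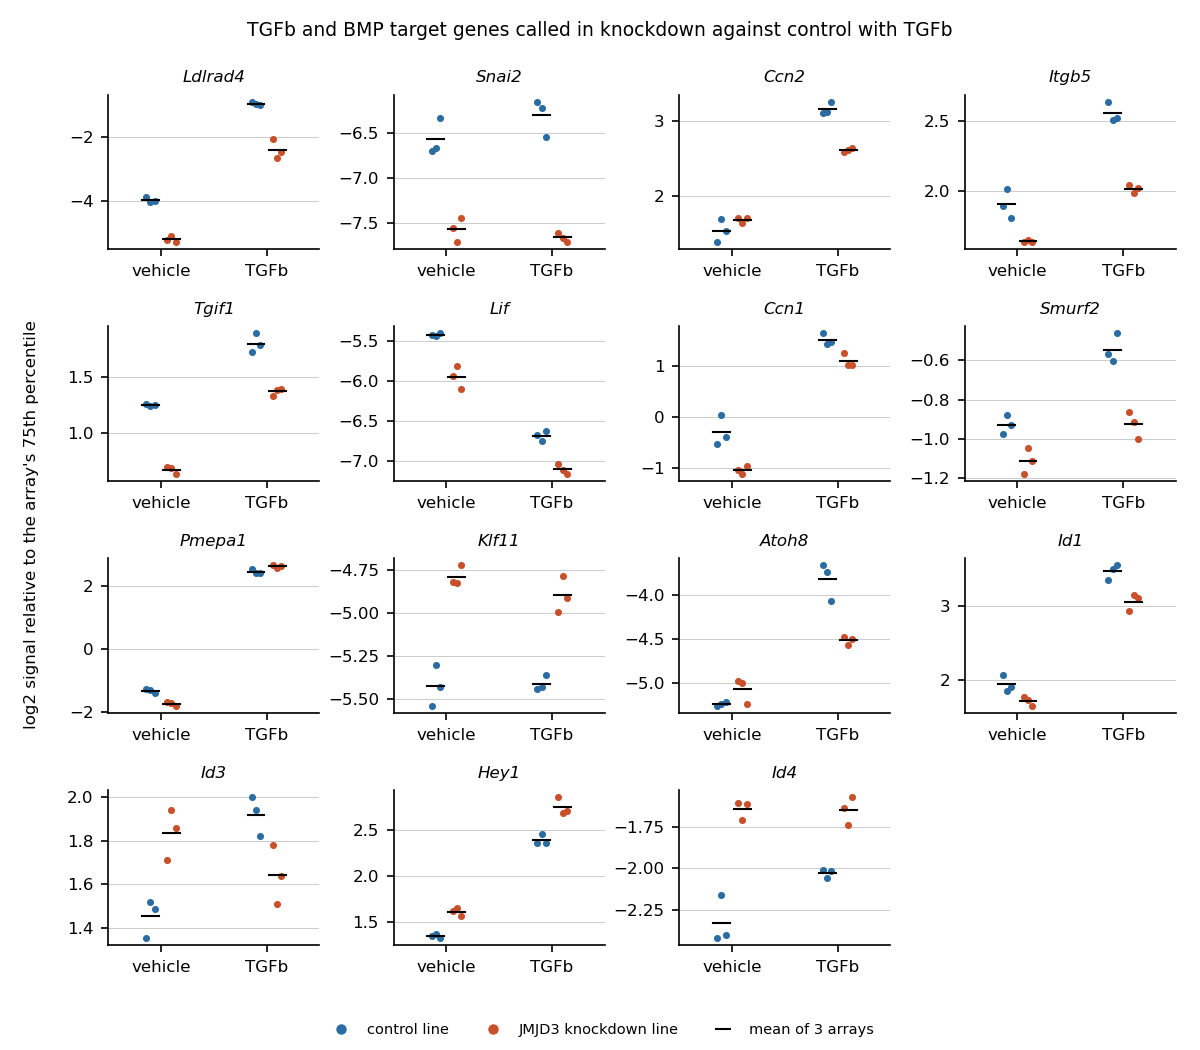
Levels of 15 TGFb and BMP target genes that passed the test between the lines with TGFb, on all 12 arrays of the 4 groups, as log2 of the processed signal relative to the 75th percentile of the array. Ldlrad4 and Snai2 are lower in the knockdown cells under both treatments, and Ccn2 separates the lines with TGFb.

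The Notch pathway had 9 of 24 measured members higher and 0 lower, against 12% and 17% of all genes, with a median of 0.13 (0.17 within slide 3 and within slide 4). Notch receptors are cut after ligand binding, and their intracellular part switches on Hes and Hey repressors that hold progenitors undifferentiated. The count was 7 to 10 higher and 0 lower under the other scalings, background corrections and the slide block, and without TGFb it was 8 higher and 1 lower. Beside Dtx1, the receptor Notch3 rose from 1.58, 1.53 and 1.49 to 2.34, 2.21 and 2.28, by 0.74 ± 0.06 (adjusted p = 2.7e-06). The effector Hes5 rose from -0.29, -0.51 and -0.58 to 0.39, -0.06 and 0.19, by 0.64 ± 0.11 (adjusted p = 0.0012). The lines did not overlap for either gene. Nrarp, a feedback inhibitor that Notch induces, rose from -1.37, -1.29 and -1.36 to -0.79, -0.77 and -0.76, by 0.57 ± 0.06. Dll3, a ligand that acts within the cell, rose by 0.47. The effector Heyl rose by 0.77, a call lost without control replicate 2 of the TGFb arrays (adjusted p = 0.051) and with normexp (0.32).

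The list of neurogenic factors and neuronal markers had 7 of 24 members higher and 5 lower, which became 4 and 5 with median scaling and 3 and 5 with normexp. Elavl3, an RNA-binding protein of neurons, rose from -2.26, -2.30 and -2.41 to -0.89, -0.91 and -0.90, by 1.42 ± 0.06 (adjusted p = 8.3e-08). Syt1, the calcium sensor of synaptic vesicles, rose by 1.26 ± 0.16, from -2.74, -2.51 and -2.97 to -1.29, -1.53 and -1.61. Dcx, a microtubule protein of migrating neurons, rose by 0.91, a call lost with normexp (0.28). In the other direction, Rbfox3, the neuronal nuclear antigen NeuN, fell from -3.77, -3.63 and -3.87 to -4.99, -5.10 and -5.04, by 1.28 (adjusted p = 2.5e-06). Insm1, a zinc-finger factor of basal progenitors, fell from -0.39, -0.13 and -0.25 to -1.28, -1.08 and -1.08, by 0.89, and Eomes, the factor that defines intermediate progenitors, from -2.58, -2.47 and -2.71 to -3.29, -3.31 and -3.43, by 0.75. Both had lower levels on every knockdown array than on any control array.

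Of 24 markers of neural stem cells and radial glia 7 rose and 5 fell, and the falls were all below 1.5-fold. The glutamate transporter Slc1a3 rose by 0.71 ± 0.04, from 4.38, 4.39 and 4.36 to 5.17, 5.08 and 5.01 (adjusted p = 7.7e-07). The stem cell factor Sox2 rose by 0.56 ± 0.04, from 1.86, 1.82 and 1.78 to 2.32, 2.38 and 2.44, and the cortical factor Lhx2 by 0.49. The list held 5 higher and 2 lower with median scaling, 6 and 2 with normexp, and 8 and 1 in the authors' values.

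Of 13 astrocyte markers 4 rose and 3 fell, or 4 and 1 with median scaling. Apoe, the lipid carrier of glia, rose from 0.07, 0.04 and -0.23 to 1.23, 0.95 and 1.03, by 1.11 ± 0.09 (adjusted p = 6.3e-06), the gap junction protein Gja1 by 0.67, the intermediate filament Gfap by 0.50 and the matrix protein Sparcl1 by 0.44. Clu, a secreted chaperone, fell by 0.48. Of 14 genes of the oligodendrocyte lineage, Nkx2-2, a homeodomain factor of precursors, rose by 0.52, and Pdgfra and 1 other member fell. The split became 2 and 2 with quantile normalization, 2 and 1 with normexp, and 4 and 2 with the slide block.

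Of 33 Hox genes and other developmental regulators that Polycomb proteins are known to bind 6 rose and 4 fell, with a median of 0.14, shares close to those of all genes. Tbx2, a T-box repressor, rose by 0.71 ± 0.09 (adjusted p = 0.00016), and Hoxa2 and Hoxb4 rose by 0.70 and 0.59, or 0.30 and 0.34 with normexp. Osr2, not well above background on any control array with TGFb, was at least 1.67-fold higher by the same kind of bound, a call lost with normexp. Tbx18 fell by 0.58 (-0.32 with normexp), and Six2 by 0.70, a call lost with normexp. With the slide as a fixed block 9 were higher and 4 lower.

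Of 20 members of the ATF4 branch, which cells switch on when amino acids or protein folding are limiting, 6 rose and 6 fell, or 7 and 4 in the authors' values. Beside Fgf21, given above as a bound, the largest rises were those of Chac1 and Trib3. Chac1, which breaks down glutathione, went from -1.22, -1.33 and -0.96 to 0.36, 0.64 and 0.94, a rise of 1.82 ± 0.18 (adjusted p = 2.8e-05). Trib3, a pseudokinase that feeds back on ATF4, went from -1.45, -1.48 and -1.12 to 0.08, 0.14 and 0.64, a rise of 1.64 ± 0.18 (adjusted p = 6e-05). On both genes the knockdown arrays spread more than the control arrays but did not reach them. Sesn2, an inhibitor of mTORC1, rose by 0.52 and the receptor Vldlr by 0.43. The members that fell were Psat1 (-0.36) and Psph (-0.18), enzymes of serine synthesis, the asparagine synthetase Asns (-0.31), the amino acid transporter chains Slc7a11 (-0.29) and Slc3a2 (-0.32) and the factor Cebpb (-0.34). Phgdh, the first enzyme of serine synthesis, differed by -0.17 and did not pass the test (adjusted p = 0.14). These members were named after their values were seen.

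ATF4 binds, with C/EBP proteins, a composite element whose core was searched as TGATGNAA on both strands of the 250 bases before each start site in RefSeq (GRCm38.p6), alone and without regard to other motifs. It lay in 3.45% of 32851 promoters, and in a promoter of 3.91% of 27025 genes. Of the 17 list members that have a promoter there, 5 held it, namely 3 of the 5 higher ones (Chac1, Vldlr and Fgf21) and 2 of the 6 lower ones (Asns and Slc7a11), so members that went in opposite directions share these letters. The 2 higher members with the largest differences among these are shown with the match in capitals, Chac1 at chr2:119350992-119351241 on the plus strand and Fgf21 at chr7:45615491-45615740 on the minus strand.
Chac1: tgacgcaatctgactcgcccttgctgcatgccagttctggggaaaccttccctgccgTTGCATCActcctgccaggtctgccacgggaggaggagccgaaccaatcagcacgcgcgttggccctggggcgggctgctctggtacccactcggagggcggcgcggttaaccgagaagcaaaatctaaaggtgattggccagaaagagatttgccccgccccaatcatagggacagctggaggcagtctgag
Fgf21: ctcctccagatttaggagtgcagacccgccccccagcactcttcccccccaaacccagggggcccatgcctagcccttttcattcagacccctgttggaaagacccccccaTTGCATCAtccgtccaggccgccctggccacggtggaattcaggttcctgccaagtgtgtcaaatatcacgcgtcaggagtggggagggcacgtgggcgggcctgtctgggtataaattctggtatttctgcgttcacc

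Of 16 chaperones of the endoplasmic reticulum 4 rose and 0 fell. Herpud1, which takes part in removing misfolded proteins, rose from 0.00, -0.06 and 0.28 to 0.89, 1.10 and 1.28, by 1.02 ± 0.11 (adjusted p = 5.7e-05). The cochaperone Dnajb9 rose by 0.75, the secreted protein Manf by 0.31 and the chaperone Hspa5 by 0.22, the last not with median scaling. The split was 4 higher and 2 lower with the percentile over detected probes, 4 and 1 with normexp, and 6 and 2 with the slide block. With median scaling, with quantile normalization and in the authors' values 3 to 5 were higher and 0 lower.

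Of 30 interferon response genes 10 rose and 5 fell, and with median scaling 5 rose and 4 fell, with quantile normalization 6 and 5. Psmb8, a subunit of the immunoproteasome, rose by 1.21 ± 0.12 (adjusted p = 1.9e-05), and by 0.81 with normexp. Ifit3, an antiviral protein, had levels of -7.27, -7.09 and -7.17 in control and -5.88, -6.00 and -6.31 in knockdown cells, a rise of 1.11 ± 0.17, and of 0.35 with normexp. The lines did not overlap. Isg20, an antiviral exonuclease, fell by 0.57.

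The interferon-stimulated response element was searched in the same windows on both strands, as GAAA followed by any 2 bases and GAAA again. It lay in 2.98% of the promoters, and in a promoter of 3.46% of the genes. Of 25 list members with a promoter 8 held it: 2 of 9 higher ones (Ifit3 and Isg15), 2 of 5 lower ones (Stat2 and Gbp3) and 4 that were not called. Isg15, Stat2 and Gbp3 are named here for the match alone. As for the ATF4 list, both directions occur among the members with a match. Ifit3, at chr19:34583279-34583528 on the plus strand, is shown as the higher member with the largest difference, with its 2 matches in capitals.
Ifit3: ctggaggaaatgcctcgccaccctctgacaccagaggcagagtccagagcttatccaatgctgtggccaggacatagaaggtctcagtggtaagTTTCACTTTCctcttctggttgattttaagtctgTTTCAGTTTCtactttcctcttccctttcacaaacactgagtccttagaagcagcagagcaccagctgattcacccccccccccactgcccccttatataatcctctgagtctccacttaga

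Of 20 chemokines and cytokines 6 rose and, with Il6 and Lif, 2 fell. Il33, an alarmin, rose from -0.51, -0.53 and -0.34 to 0.39, 0.59 and 0.60, by 0.99 ± 0.08 (adjusted p = 5.5e-06). Cxcl10, which attracts T cells, rose by 0.80, Ccl7, which attracts monocytes, by 0.66, and the vessel growth factor Vegfa by 0.62. Cxcl5 rose by 0.68, a call lost with normexp.

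Extracellular matrix and its remodelling enzymes changed in both directions: 9 of 46 measured genes rose and 13 fell, with a median of -0.03. The called share was above the 29% of all genes, as in most of the pathway lists. Collagens fell where they were called. Col6a1, a chain of the beaded microfibrils, fell from -0.94, -0.83 and -1.04 to -1.65, -1.69 and -1.77, by 0.77 (adjusted p = 6.9e-06). Col2a1, the collagen of cartilage and of early neuroepithelium, went from -0.71, -0.95 and -0.89 to -1.46, -1.64 and -1.57, a difference of -0.70 (adjusted p = 0.00042). TGFb raised Col2a1 by 5.47 in control and 4.92 in knockdown cells, which share these arrays. The basement membrane chain Col4a1 fell by 0.65 and the proteoglycan Hspg2 by 0.67. The rises included Mmp14 (0.90 ± 0.15, adjusted p = 0.001), a membrane-bound protease that cuts collagen, and Mgp (0.88 ± 0.15), an inhibitor of calcification and of BMPs.

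Of 15 integrin chains 4 rose and 4 fell. The fibronectin and vitronectin receptor chains Itgav and Itga4 rose by 0.50 and 0.47. Itgb5 was among those that fell, and Itga3, a laminin receptor chain, fell by 0.56, a call lost with normexp.

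Of 13 contractile genes 1 rose and 5 fell, which became 0 and 5 with median scaling and 3 and 5 with the slide block. Myl9, the regulatory light chain of smooth muscle and non-muscle myosin, had levels of 2.35, 2.29 and 2.27 on the control arrays and 0.94, 0.80 and 0.95 on the knockdown arrays. All knockdown arrays lay more than 1 unit below all control arrays, and the difference was -1.40 ± 0.06 (adjusted p = 6.2e-08). Acta2, smooth muscle actin, differed by -0.74 ± 0.08 (adjusted p = 6.6e-05) and the crosslinker Actn1 by -0.67 ± 0.10 (adjusted p = 0.00053). Actg2, the enteric smooth muscle actin, fell by 0.73, a call lost with normexp, and Vcl, of focal adhesions, by 0.25, a call lost without control replicate 3 of the TGFb arrays (adjusted p = 0.052). Among 11 mesenchymal transition genes 2 rose and 4 fell, with the repressor Zeb1 at 0.32 and the cadherins Cdh6 and Cdh13 at -0.70 and -0.60, beside Snai2.

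Immediate early genes split, with 5 of 25 higher and 5 lower, and so did the AP-1 partners. Fos rose from -3.20, -3.03 and -2.89 to -2.07, -1.96 and -1.99, by 1.03 ± 0.10 (adjusted p = 1.6e-05), while Jun fell from 2.44, 2.67 and 2.49 to 1.73, 1.56 and 1.39, by 0.97 (adjusted p = 1.1e-05). Egr1, a zinc-finger factor of the growth factor response, fell from 0.32, 0.87 and 1.03 to -0.27, -0.27 and -0.76, by 1.17, and Atf3, an AP-1 related factor of stress, rose by 0.85. Btg2, an antiproliferative gene of neurogenic progenitors, rose by 0.93. In the FGF-ERK list 3 of 17 rose and 3 fell (4 and 2 with normexp, 3 and 1 in the authors' values), with the ERK phosphatase Dusp5 at 0.68 (0.27 with normexp) and Spred3, an inhibitor of Ras signalling, at 0.53.

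Ccnd1, the D cyclin that drives entry into S phase, fell from 4.85, 4.84 and 4.95 to 3.94, 4.06 and 3.94, by 0.89 (adjusted p = 6e-07), and Ccnd2 fell by 0.37. These were the 2 calls among 13 CDK inhibitors, D cyclins and Myc genes, with 0 higher, against 2 higher and 2 lower with quantile normalization and 1 and 2 in the authors' values. Of 24 genes of the cell cycle and DNA replication 2 rose and 6 fell, while with quantile normalization 3 rose and 2 fell, with normexp 2 and 3, and in the authors' values 2 and 2. Ccne1, the cyclin of the step into replication, rose by 0.52, and Mcm5, of the replicative helicase, fell by 0.24. Of 15 p53 targets 2 rose and 4 fell (2 and 2 with normexp or in the authors' values), with the apoptosis gene Bbc3 at 0.75 and Trp53inp1, a p53 cofactor in stress, at -0.77.

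Of 21 Wnt antagonists and feedback genes 5 rose and 5 fell. Wif1, a secreted inhibitor that binds Wnts, rose from -4.91, -4.98 and -4.83 to -3.85, -3.78 and -3.97, by 1.04 ± 0.14 (adjusted p = 0.0002). The related inhibitors Sfrp2 and Dkk3 rose by 0.93 and 0.91, while Sfrp1 fell by 0.85 (adjusted p = 2.5e-06). Rnf43, a ubiquitin ligase that removes Wnt receptors, was called lower, with levels of -5.77, -5.56 and -6.07 in control and -8.02, -8.52 and -8.50 in knockdown cells. Of its 3 knockdown arrays 1 was well above background, so the size is uncertain, and with normexp it fell by 0.74. Of 11 Hedgehog receptors and Gli genes 2 rose and 0 fell, and 0 were called with median scaling, with quantile normalization or in the authors' values.

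Of 19 ephrins and Eph receptors 4 rose and 3 fell (2 and 3 with median scaling or in the authors' values, 1 and 3 with normexp), with Epha2 at 0.96 ± 0.11 and Efnb1 at -0.66 ± 0.06. Of 15 histone genes 4 rose and 2 fell, or 4 and 1 with normexp, and the rises of H2bc4 (1.51 ± 0.07), H1f2 (1.49 ± 0.05) and H1f3 (1.39 ± 0.16, or 0.62 with normexp) were among the larger ones of the lists. Such histone genes lie in families of near-identical copies, whose signals a probe may not separate. Of 20 hypoxia genes 3 rose and 3 fell, with Bnip3 at 0.79 and Ndrg1 at -0.65 (-0.43 with normexp). That split became 5 and 3 with quantile normalization or normexp, 6 and 3 in the authors' values and 7 and 4 with the slide block. Of 24 genes of cholesterol synthesis and uptake 2 rose and 6 fell, or 0 and 7 with the percentile over detected probes and 0 and 4 with median scaling. Abcg1, which exports cholesterol, fell most in that list, by 1.29, or by 0.34 with normexp.

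**Figure D4:**
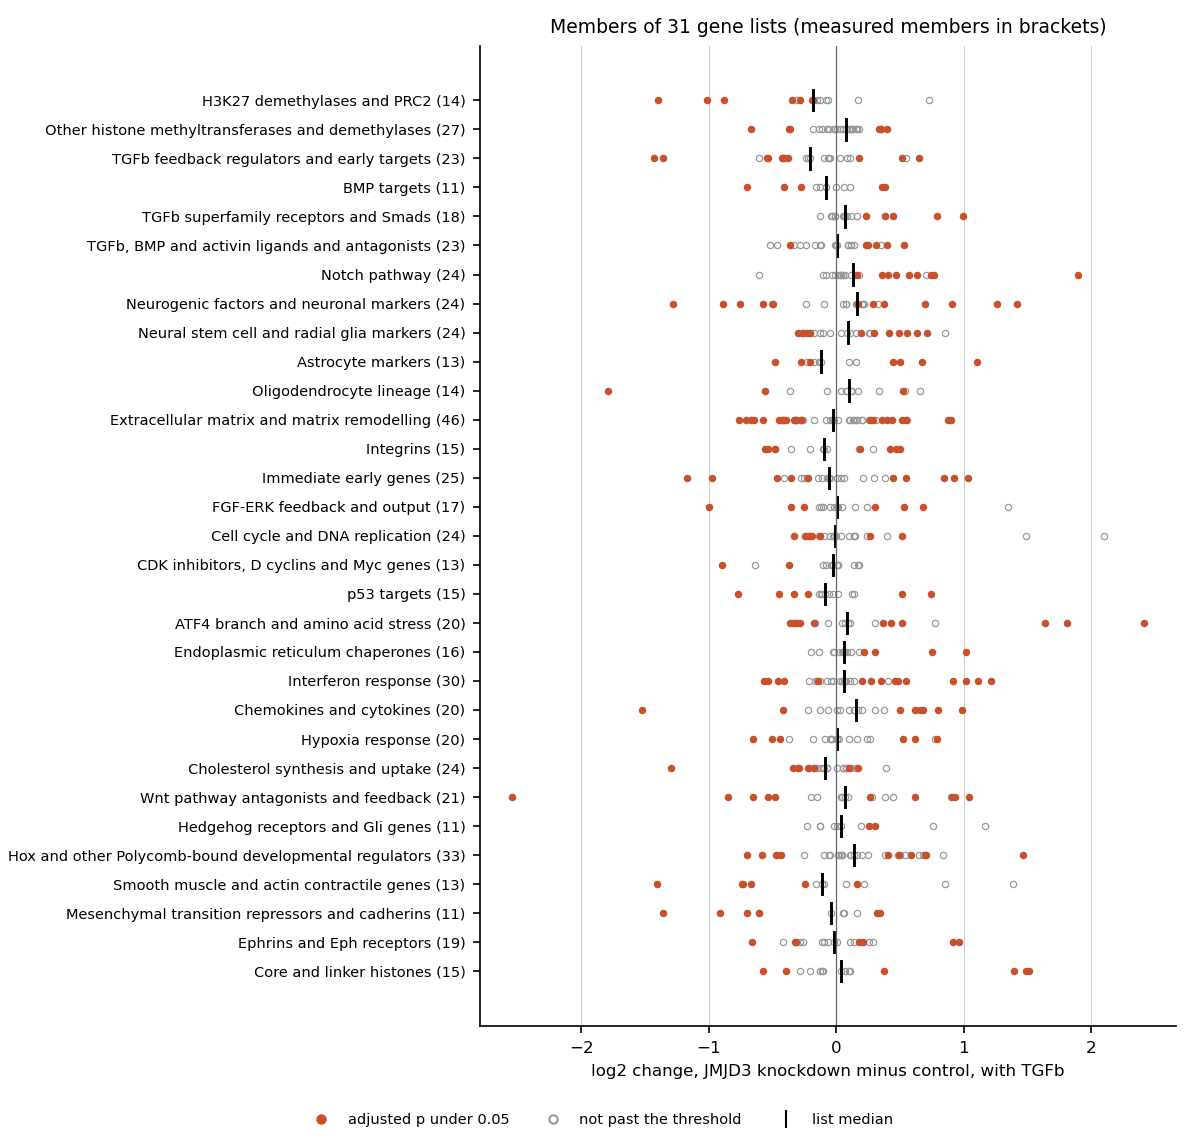
Log2 difference, knockdown minus control with TGFb, of each measured member of the 31 pathway lists, with filled points for members at an adjusted p below 0.05 and a tick at the median of each list. The medians lie between -0.20 and 0.16, while single members reach beyond 1 in both directions.

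Markers of other cell types were measured on the same arrays. Of 7 measured microglial genes 1 rose, P2ry12 (0.98 ± 0.10), and the summed level of the 7, as a multiple of the 75th percentile, was 3.17 to 3.51 on control and 3.42 to 4.01 on knockdown arrays. The microglial genes Aif1, Trem2 and C1qa did not pass the filter. For pericytes 1 of 4 rose, Notch3, and the sum was 2.83 to 3.00 against 4.65 to 5.07, while Pdgfrb and Kcnj8 did not pass the filter. For fibroblasts and meninges 1 of 7 rose, Prrx1, and 1 fell, Pdgfra, with sums of 4.45 to 5.21 against 5.22 to 5.68, and Col3a1 and Lum did not pass. Of 7 endothelial markers 0 rose and 1 fell, with sums of 0.724 to 0.896 against 0.761 to 0.945, and Cdh5 did not pass. For choroid plexus (4 markers), neural crest (4) and pluripotent cells (5) 0 were called, and their sums on control arrays were 1.98 to 2.10, 0.231 to 0.282 and 0.365 to 0.385, against 1.92 to 2.11, 0.289 to 0.332 and 0.383 to 0.429 on knockdown arrays. Ttr, Foxd3 and Zfp42, which define these 3 types, did not pass the filter. The sums of pericyte, fibroblast and neural crest markers did not overlap between the lines, but the first 2 rest largely on 1 marker each. Notch3 made up 99.4% to 99.8% of the pericyte sum, and without it the sum was 0.0165 to 0.0191 on control and 0.0116 to 0.0159 on knockdown arrays. Foxc1 made up 69.0% to 72.1% of the fibroblast sum, and without it the sums overlapped between the lines. The median difference was -0.24 for the pericyte, -0.13 for the fibroblast and 0.16 for the neural crest markers. The part of these markers in the results was not tested.

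The same comparison was made without TGFb on the 6 vehicle arrays, which share slides but no arrays with the TGFb set. There 6719 genes (27.8%) were called. The lists of calls shared 5199 genes in the same direction, 74.3% of those with TGFb and 77.4% of those without, and 6 genes were called in opposite directions. Across all genes the differences correlated with r = 0.74, also with the slide as a block. This is a description over genes, which are not independent replicates. Of the 454 genes with 2-fold or larger differences with TGFb, 391 were called in the same direction without it and 63 were not called.

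Whether the effect of knockdown differed with and without TGFb was tested directly. Of the 24139 genes 21 passed (0.087%), with the signed effect higher with TGFb in 11 (0.0456%) and lower in 10 (0.0414%). Of the 21, 14 were also called between the lines with TGFb. At an SE of 0.144 for a median gene, many smaller differences were not detectable.

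Dclk3, a doublecortin-like kinase, shows the pattern of a gene that separated the lines with TGFb. Its levels with vehicle were -3.94, -3.61 and -3.71 in control and -3.79, -3.69 and -3.82 in knockdown cells, and with TGFb -2.25, -2.14 and -2.23 and -3.76, -3.67 and -3.61. The control arrays with TGFb stood above all the other 9 arrays. The knockdown effect was -1.47 ± 0.09 with TGFb and -0.01 without, and the difference was -1.46 ± 0.13 (adjusted p = 0.0026). Chst8, a sulphotransferase of glycoprotein hormones, differed by -0.84 with TGFb and 0.31 without. Ccn2 was called too, with -0.55 with TGFb and 0.15 without (difference -0.69 ± 0.10, adjusted p = 0.03). This call held in 2 of the 12 fits that left out 1 array, while those of Dclk3 and Chst8 held in all 12. It was also lost with a replicate block and with median scaling.

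Genes whose signed knockdown effect was higher with TGFb included Wnt5a, a non-canonical Wnt ligand, with 0.04 with TGFb and -0.78 without (difference 0.83 ± 0.10, adjusted p = 0.014). Gas1, a co-receptor for Hedgehog proteins, differed by 0.20 with and -0.73 without TGFb (difference 0.93 ± 0.11, adjusted p = 0.01). For both, the lines were apart with vehicle and did not pass the test with TGFb. Insm1 fell under both treatments, by 0.89 with TGFb and 1.72 without, so for Wnt5a, Gas1 and Insm1 the effect was smaller in size with TGFb. Palmd, of the paralemmin family, and Ehd4, of endocytic recycling, rose under both, by 1.71 and 1.57 with TGFb against 1.11 and 1.00 without.

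These calls were sensitive to the fit. Of the 20 that the rule names, 13 were called with normexp, 12 in the authors' values, 5 with median scaling, 20 with the slide as a block, and 4 (Mgp, AW742560, Dclk3 and Chst8) in all 12 fits that left out 1 array. The 21 calls became 4 without control vehicle replicate 3 or knockdown TGFb replicate 3, 6 without control TGFb replicate 3, 7 without knockdown TGFb replicate 2, 8 and 11 without knockdown vehicle replicates 2 and 3, and 13 without control TGFb replicate 1 or 2. For Mgp, whose effect was 3.23 without and 0.88 with TGFb, the difference shrank from -2.35 to -0.50 with normexp (adjusted p = 0.33).

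**Figure D5:**
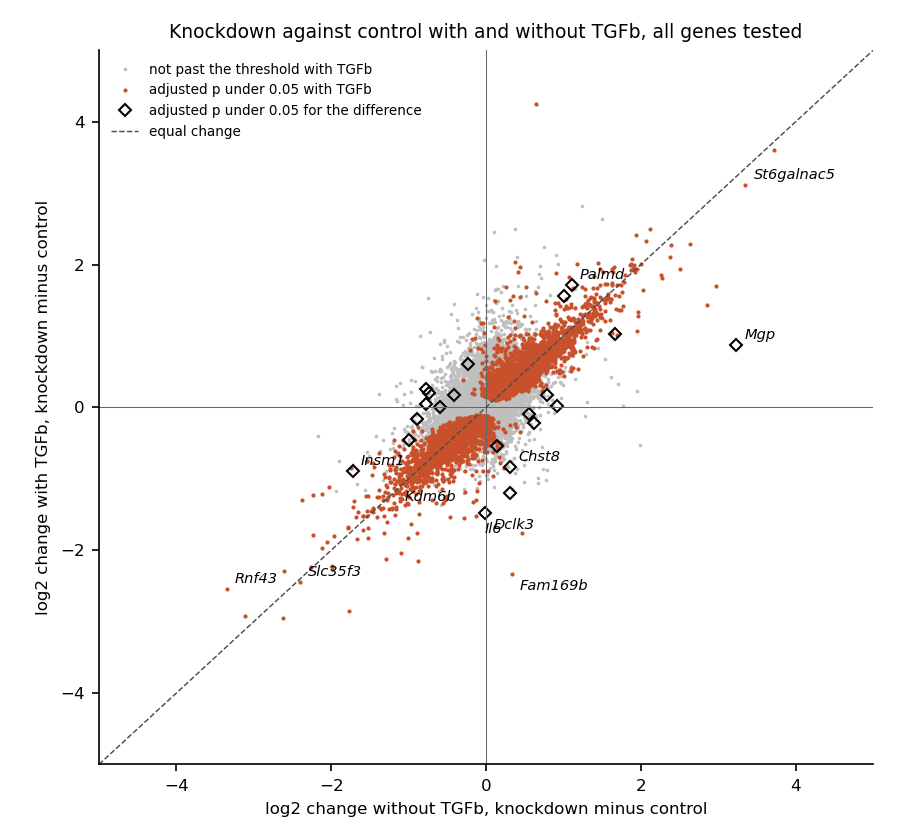
Log2 difference, knockdown minus control, of each of the 24139 genes without TGFb (horizontal) and with TGFb (vertical), with diamonds for the 21 genes whose effects differed between treatments. Most genes follow the diagonal (r = 0.74), and the diamonds lie off it.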

How the data were processed

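RNA of the 12 samples, 500 ng each per the labels' protocols, was hybridised to 1-colour Agilent mouse arrays, and groups were taken from the labels. The deposited scanner files give an intensity per spot on a linear scale, read with Agilent Feature Extraction 10.7.3.1 with probe positions on mm9, per the file headers. The authors also deposited processed log2 values, whose 12 columns each matched their own array best and share a median of 7.93. That match, made by correlation, fixes the array and the direction of each column but not its scale. How the authors corrected background is not given in the sources used here, and centring of any other kind is unknown.

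Control spots (1377 of each array's spots, beside 43020 gene spots) and outlier-flagged spots were left out and spots of a probe averaged, which gave 39429 gene probes. Levels are log2 of the software's processed signal minus the array's 75th percentile of the same. The filter kept 29972 probes, those well above background throughout 1 or more groups, and the brightest kept probe stood for each gene (24139 genes, 4859 with several kept probes). Names came from accessions through a RefSeq table (GRCm38.p6) for 26157 probes, and 13272 kept the file's name. The test was that of limma 3.58.1, run in R 4.3.3 (1 fit over the 12 arrays, a mean for each group, eBayes with a trend, 8 residual and 3.11 prior degrees of freedom), two-sided, with Benjamini-Hochberg adjustment over all genes and a threshold of 0.05. The scripts were tested on simulated data.

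The comparison, its members and the gene lists were chosen with earlier results of these data known, so no list is independent support for a direction. Of 726 list entries 723 matched a gene of the arrays. The rule for named genes took Kdm6b, the 15 largest rises and 15 largest falls among called genes with established symbols and non-overlapping arrays, up to 8 bounds in each direction, all members of the H3K27, TGFb feedback and BMP target lists, up to 6 called members of each other list, and up to 10 genes in each direction of the difference between treatments. Some genes that the rule names are left out of the text. Alternatives were another background correction (normexp with an offset of 50), scalings, filters, probe rules, priors, array weights, slide and replicate blocks, thresholds, the authors' table in place of the scanner values, and fits without each array in turn.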

Additional observations from a re-analysis of the deposited data

Results flagged for a closer look

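For the genes below the effect of knockdown differed between the cells with and without TGFb, by the test of the difference itself (limma, adjusted p between 0.0026 and 0.049). Each value is the knockdown effect with TGFb minus that without, on the log2 scale.

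In the first set that value was negative. It was -2.35 for Mgp, an inhibitor of calcification, -1.46 for the kinase gene Dclk3 and -1.15 for the sulphotransferase gene Chst8. It was -0.89 for the small GTPase gene Diras2, -0.83 for the kinase gene Cdkl4, -0.69 for Ccn2, -0.65 for the galactosyltransferase gene B4galt1, -0.64 for the adrenergic receptor gene Adra2a and -0.60 for the ephrin gene Efnb2.

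In the second set it was positive. It was 0.56 for Ehd4, 0.60 for Pmepa1, 0.60 for Zbed5, 0.61 for Palmd, 0.73 for AW742560, 0.83 for Wnt5a, 0.83 for Insm1, 0.84 for the oestrogen receptor gene Gper1, 0.93 for Gas1 and 1.03 for Rufy4.

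Several of these differences depend on the fit. Zbed5 was called in 0 of the 12 fits that left out 1 array, and Gper1, Diras2 and Adra2a in 1 each. Ccn2 was called in 2 of these fits, and Insm1, Rufy4 and Cdkl4 in 3 each. With normexp the value of Zbed5 was 0.46 (adjusted p = 0.18), that of Adra2a -0.53 (adjusted p = 0.42), and that of Mgp -0.50 (adjusted p = 0.33).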

How the results depend on the processing

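The 6996 calls with TGFb became 4644 with median scaling, 4569 at an adjusted p below 0.01 and 1689 at 1.5-fold or more. In the other alternatives they were within 1.5 times that count, and 5392 to 7156 with 1 array left out. The 454 calls of 2-fold or more became 734 with array weights, 169 in the authors' values and 174 with normexp, and 398 to 605 with 1 array left out. The 5199 shared calls became 3019 with median scaling, 3373 at an adjusted p below 0.01 and 1180 at 1.5-fold or more, and 4311 to 5064 with 1 array left out. The 21 genes whose effects differed between treatments became 65 with array weights, 5 with median scaling, 45 and 95 with the slide as a fixed or random block, 4 at an adjusted p below 0.01, and 4 to 27 with 1 array left out. Kdm6b ranged from -1.42 to -1.36 with 1 array left out.

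Replicate numbers showed no steady pairing of the TGFb groups: deviations of same-numbered arrays of both groups correlated between -0.39 and 0.18. Same-numbered control and knockdown arrays with vehicle correlated at 0.47, 0.58 and 0.25. Each of these vehicle pairs shared a slide, so number and slide cannot be told apart there. With a replicate block 6151 genes were called with TGFb, and 11 for the difference between treatments.

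With the mean over a gene's probes, Kmt2d turned to 0.10 (adjusted p = 0.77) and Kdm4a to -0.093 (adjusted p = 0.37). Of 224 called named genes 61 lost the call in some alternative and 36 with some array left out, while 160 kept it in all of both. The cause of these changes was not tested.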
